A study of Homo sapiens with 9 samples.

Results

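Lactate dehydrogenase and the genes that decide whether pyruvate is turned into lactate or enters the mitochondrial pyruvate dehydrogenase complex were examined in PANC1 cells, an established line from a human pancreatic ductal adenocarcinoma. The set held 10 genes, chosen by name out of 60612 in the deposited table: the lactate dehydrogenase subunits LDHA and LDHB, the lactate carriers SLC16A1 and SLC16A3, the pyruvate dehydrogenase kinases PDK1, PDK2 and PDK3, and the complex subunits PDHA1, PDHB and DLAT. RNA sequencing covered 3 libraries from cells that received a flag-NUSAP1 expression plasmid (overexpression), 3 from cells that received siRNA, a small interfering RNA, directed at NUSAP1 (knockdown) and 3 from wild-type cells with no treatment (control). NUSAP1 binds microtubules in the dividing cell's spindle, and the title of the series places it in a loop with LDHA, glycolysis and lactate. No label describes an empty plasmid or a control siRNA, so the change in NUSAP1 and the transfection that delivered it cannot be told apart. Nor do the labels say whether the 3 libraries of a group came from separate cultures, and every p-value here reflects the scatter among these libraries, which may be technical.

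Pyruvate, the end product of glycolysis, has several fates. Lactate dehydrogenase is a tetramer of LDHA and LDHB subunits that interconverts pyruvate and lactate; tetramers rich in LDHA are known for reducing pyruvate, and those rich in LDHB for oxidising lactate. SLC16A3 (MCT4) and SLC16A1 (MCT1) carry lactate across the plasma membrane. The pyruvate dehydrogenase complex turns pyruvate into acetyl-CoA, and the PDK kinases switch it off by phosphorylating PDHA1. Hypoxia-inducible factor is known to bind DNA at sites with an ACGTG core, and MYC at CACGTG, and LDHA, SLC16A3 and PDK1 are textbook targets of hypoxia-inducible factor in cancer cells.

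The promoters of LDHA, LDHB and PDK1 are shown because these 3 genes had the largest falls after knockdown among the 10. Each is a RefSeq window on GRCh38.p14 from 250 bases before to 50 after a transcription start, 5′ to 3′ on the gene's strand. Capitals mark every ACGTG or CACGTG, read on both strands, where the 5 letters lie within the 6 letters of CACGTG, and CACGT is ACGTG on the other strand. The LDHA window is at chr11:18394313-18394612 (plus strand), that of LDHB at chr12:21657793-21658092 (minus strand) and that of PDK1, from the second of 2 listed starts, at chr2:172555840-172556139 (plus strand).
LDHA: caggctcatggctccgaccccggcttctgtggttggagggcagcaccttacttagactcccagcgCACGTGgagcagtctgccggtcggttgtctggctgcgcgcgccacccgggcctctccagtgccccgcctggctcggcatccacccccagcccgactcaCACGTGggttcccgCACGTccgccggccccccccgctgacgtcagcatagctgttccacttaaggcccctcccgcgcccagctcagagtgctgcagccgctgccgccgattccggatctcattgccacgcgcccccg
LDHB: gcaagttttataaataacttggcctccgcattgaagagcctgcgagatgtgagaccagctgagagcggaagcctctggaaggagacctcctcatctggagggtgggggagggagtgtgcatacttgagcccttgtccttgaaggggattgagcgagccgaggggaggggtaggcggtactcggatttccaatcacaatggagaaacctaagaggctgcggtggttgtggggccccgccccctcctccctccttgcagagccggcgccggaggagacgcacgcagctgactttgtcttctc
PDK1: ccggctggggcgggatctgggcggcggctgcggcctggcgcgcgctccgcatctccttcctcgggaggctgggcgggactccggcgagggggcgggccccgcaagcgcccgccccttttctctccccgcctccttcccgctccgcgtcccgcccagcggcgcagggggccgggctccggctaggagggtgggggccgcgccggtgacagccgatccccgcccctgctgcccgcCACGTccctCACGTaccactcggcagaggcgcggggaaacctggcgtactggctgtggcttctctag
The LDHA window held 3 such places, 185, 87 and 73 bases upstream of the start, and the first and second of them were the full CACGTG. A second LDHA start held none, and neither did LDHB. In PDK1 there were 2, at 17 and 8 bases upstream of the second listed start, and the window of the first listed start held none. RefSeq windows were at hand for 9 of the 10 genes, with 17 starts in all. Of these 17 windows, 7 held ACGTG, each from another gene and among them 1 of SLC16A3 with 2 places, and 3 held CACGTG. Among all 35116 windows of this length, 21.4% held ACGTG and 7.26% held CACGTG. A match of letters is a description and does not show that a factor binds.

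Levels are given as FPKM, the authors' deposited fragments scaled by the length of the gene model and by library size, and changes as log2 fold changes from edgeR's quasi-likelihood test on the deposited counts, each with an approximate standard error (SE). The threshold was an adjusted p of 0.05 (Benjamini-Hochberg, over 12545 genes), and genes were tested where 3 or more of the 9 libraries reached 1 FPKM. All 10 genes passed this filter. The libraries held 57115172 to 73386227 counts each. NUSAP1 itself was at 13342 ± 441 FPKM after overexpression and 12.5 ± 1.19 FPKM after knockdown, against 35.7 ± 5.80 FPKM in control cells (SD, n = 3 each), and it took 5.63% to 5.998% of all counts in the overexpression libraries. All 8 markers of pancreatic ductal epithelium had counts in every library, and markers of acinar cells were at 0 to 4 counts in sum. KRT7, a ductal marker below 1 FPKM in each library, was not tested. Of the 7 ductal markers tested, edgeR called KRT18 higher and CDH1 and EPCAM lower after overexpression, and KRT19 lower after knockdown. Transcripts of hepatocytes, such as ALB, stood out in 4 libraries, overexpression 1 and 3 and control 2 and 3, where 16 markers summed to 22.9 to 33.7 FPKM, against 0.349 to 1.32 FPKM in the other 5. No knockdown library was among those 4. Values without them are given beside some of the counts and many of the single genes named, but not beside all of either. The 6 leukocyte markers summed to 0.288 to 3.22 FPKM after overexpression and 0.138 to 0.354 FPKM after knockdown, against 1.67 to 3.96 FPKM in control cells. LYZ, which made up most of the sum in control libraries, was at 0 counts in every knockdown library. It had 332, 12 and 388 counts in overexpression libraries 1 to 3 and 231 to 426 counts in control libraries, with control 1 at the low end. CD14, another of these markers, had means of 0.282 FPKM after overexpression and 0.220 FPKM after knockdown, against 0.182 FPKM in control cells. The 6 fibroblast markers had sums of 9.25 to 9.65 FPKM after overexpression and 15.3 to 16.3 FPKM after knockdown, against 20.4 to 21.96 FPKM in control cells. Most of this was the collagen gene COL1A1. COL3A1, another collagen gene, had a mean of 0.859 FPKM after overexpression and 4.30 FPKM after knockdown, against 3.33 FPKM in control cells, and LUM was at 0 counts in all libraries but knockdown 2 and control 1. The part of leukocyte and fibroblast markers in the results was not tested. In whole cultures, fewer cells that express a gene and less RNA per cell cannot be told apart.

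After overexpression, 7 of the 10 genes fell relative to control, none rose, and SLC16A1, PDHA1 and DLAT did not pass the test. At an unadjusted p below 0.05 edgeR had 8 lower and 0 higher, and DESeq2 called 8 lower and 0 higher. Over all 12545 tested genes DESeq2 called 3514 lower and 3645 higher, and no share of all genes is given for unadjusted p. In edgeR 53.4% of all tested genes were called in this comparison, and 26.0% were called lower. In FPKM, all 10 genes were lower in each overexpression library than in any control library, a pattern shown by 34.9% of tested genes, while 62.8% did not overlap in one direction or the other. FPKM divides by library size, and NUSAP1 took 5.63% to 5.998% of counts in overexpression libraries, which lowers the FPKM of other genes there. The part of this scaling in the pattern was not tested. After knockdown, 6 of the 10 fell (LDHA, LDHB, PDK1, PDK2, PDK3 and DLAT) and none rose. At an unadjusted p below 0.05 edgeR had 7 lower and 1 higher, PDHA1, and DESeq2 called 7 lower and 0 higher. DESeq2 called 1413 lower and 1354 higher over all 12545 tested genes. Without the 4 libraries with hepatocyte transcripts edgeR called 0 of the 10 after knockdown, with 7 lower and 0 higher at an unadjusted p below 0.05. That fit called few of all tested genes, as the closing section gives. With all libraries edgeR called 14.5% of tested genes after knockdown, 7.02% higher and 7.43% lower, a much smaller background than after overexpression. In FPKM 7 of the 10 were lower in each knockdown library than in any control library and PDHA1 was higher in each, where 35.8% of tested genes did not overlap and 16.5% did so on the lower side. The median log2 fold change of the 10 genes was -0.61 after overexpression and -0.45 after knockdown, where the medians of all tested genes were 0.00 and 0.02. The split of all calls depended on the scaling. In edgeR 3438 genes were higher and 3264 lower after overexpression, and 881 higher and 932 lower after knockdown, whereas limma on log2(TPM + 1), where FPKM were rescaled to a fixed sum, gave 3974 and 2248, and 1414 and 449, with the median gene raised by 0.14 in both. LDHA, LDHB, PDK1, PDK2 and PDK3 fell in both comparisons, as did 3.99% of all tested genes, but both use the same 3 control libraries.

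**Figure D1:**
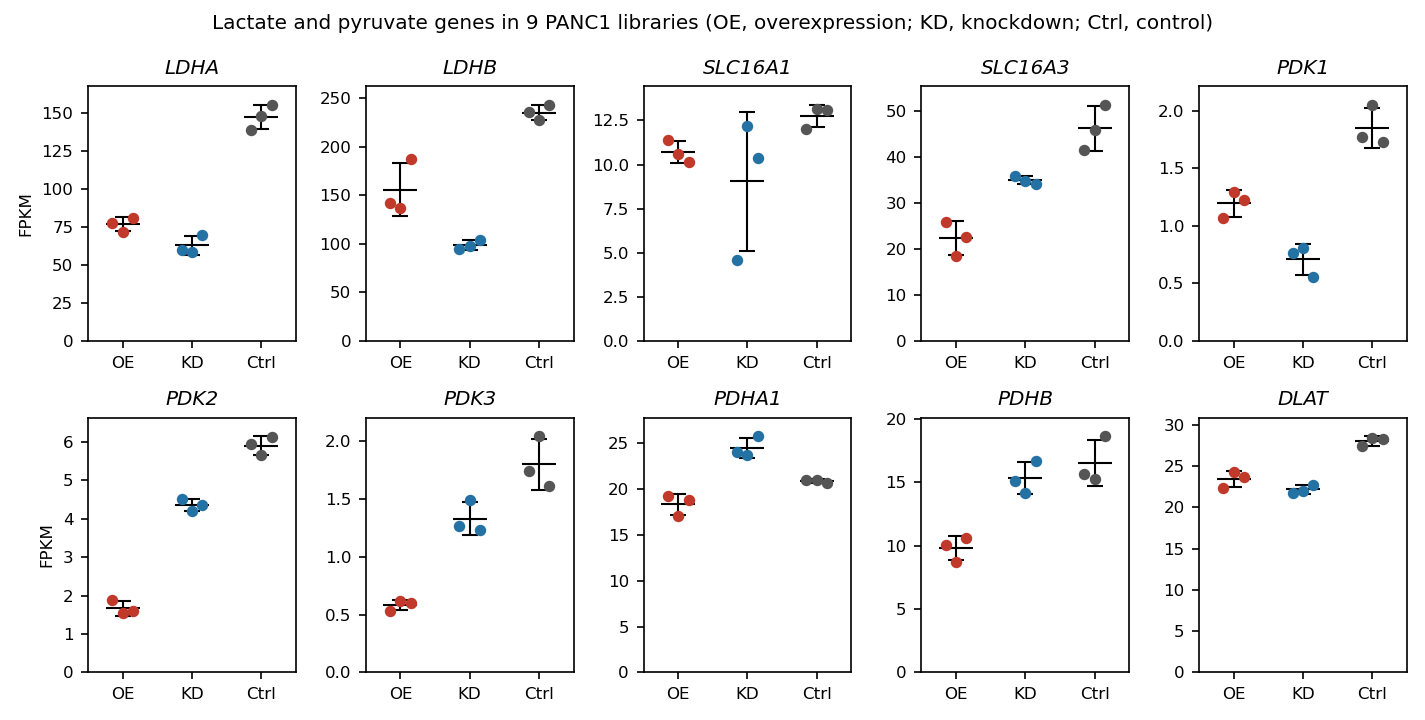
FPKM of the 10 genes (vertical axes, each starting at 0) in overexpression (OE), knockdown (KD) and control (Ctrl) libraries; points are libraries 1 to 3 from left to right, long dashes group means and bars 1 SD. LDHA, LDHB and PDK1 are lowest after knockdown, whereas SLC16A3, PDK2, PDK3 and PDHB are lowest after overexpression.

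LDHA, the subunit of the muscle-type enzyme, had 77.2, 71.7 and 80.9 FPKM in overexpression libraries 1 to 3 and 59.8, 58.5 and 69.9 FPKM in knockdown libraries, against 139, 148 and 155 FPKM in control libraries. Every overexpression and every knockdown library lay far below every control library, and the lowest overexpression library lay just above the highest knockdown library. LDHA fell by 0.86 ± 0.10 on the log2 scale after overexpression (edgeR adjusted p = 0.000145), or 1.82-fold. It fell by 1.24 ± 0.10 after knockdown (edgeR adjusted p = 0.000283), or 2.36-fold. Raising and lowering NUSAP1 thus both went with less LDHA RNA than in untreated cells. The test of overexpression against knockdown put LDHA higher after overexpression by 0.38 ± 0.10 on the log2 scale (edgeR adjusted p = 0.0123). In the 5 libraries without hepatocyte transcripts, which leave 1 overexpression and 1 control library whose spread is taken from the knockdown group, the changes against control were -0.93 (adjusted p = 0.0468) and -1.21 (adjusted p = 0.109) in edgeR, and that against knockdown was 0.28 (adjusted p = 0.261).

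LDHB, the subunit of the heart-type enzyme, had the highest mean FPKM of the 10 genes in each group. It had 142, 137 and 187 FPKM after overexpression and 94.2, 97.6 and 104 FPKM after knockdown, against 235, 227 and 243 FPKM in control cells. The 3 groups did not overlap, and overexpression 3 stood above the other overexpression libraries. LDHB fell by 0.52 ± 0.12 on the log2 scale after overexpression (edgeR adjusted p = 0.00599) and by 1.27 ± 0.12 after knockdown (edgeR adjusted p = 0.000536). Set against knockdown, overexpression libraries were higher by 0.75 ± 0.12 (edgeR adjusted p = 0.000925). Without the libraries with hepatocyte transcripts the edgeR values against control were -0.76 (adjusted p = 0.0409) after overexpression and -1.32 (adjusted p = 0.0747) after knockdown.

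The sum of both subunits was 232 ± 31.6 FPKM after overexpression and 161 ± 11.1 FPKM after knockdown, against 382 ± 13.4 FPKM in control cells (SD, n = 3 each). The balance between them moved less. The ratio of LDHA to LDHB FPKM was 0.542, 0.523 and 0.432 in overexpression libraries and 0.635, 0.599 and 0.670 in knockdown libraries, against 0.589, 0.651 and 0.637 in control libraries. All overexpression libraries lay below both other groups, while knockdown and control libraries overlapped. The mean difference of the log2 ratio was -0.33 for overexpression against control, -0.35 for overexpression against knockdown and 0.02 for knockdown against control. In exact two-sided permutation tests, for which 3 libraries against 3 allow no p below 0.1, these gave p = 0.1, p = 0.1 and p = 0.8, or 0.129, 0.129 and 0.9 after Benjamini-Hochberg adjustment over the 9 ratio tests made. Without the 4 libraries with hepatocyte transcripts the differences against control were -0.17 after overexpression and 0.11 after knockdown.

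The size of the ratio depends on the gene lengths used. With library size taken as the summed counts, the deposited FPKM imply a length of 7201 bases for LDHA and 3557 bases for LDHB. With counts not divided by length, the ratio was 1.01 ± 0.119 after overexpression and 1.29 ± 0.0715 after knockdown, against 1.27 ± 0.0657 in control cells (SD, n = 3 each). With the longest principal transcript of GENCODE 29 it was 0.643, 0.818 and 0.806 in the same 3 groups. The size of the ratio thus moved with the length, with LDHB above LDHA per length in each group either way, but the differences between groups did not, since a fixed length cancels in them. LDHA has 6 named pseudogenes in the table, whose counts summed to at most 1.12% of those of LDHA in any library.

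SLC16A3, which carries lactate out of glycolytic cells, had 25.9, 18.5 and 22.5 FPKM after overexpression and 35.9, 34.8 and 34.1 FPKM after knockdown, against 41.5, 45.9 and 51.3 FPKM in control cells. The 3 groups did not overlap, and the overexpression libraries were lowest. SLC16A3 fell by 0.97 ± 0.12 on the log2 scale after overexpression (edgeR adjusted p = 0.000221), and it was lower after overexpression than after knockdown by a log2 fold change of -0.55 ± 0.12 (edgeR adjusted p = 0.00503). The change after knockdown, -0.42 ± 0.12, narrowly missed the threshold (edgeR adjusted p = 0.0520). A fit of knockdown and control libraries alone called it (-0.43, adjusted p = 0.0286), also when blocked on the replicate number (-0.42, adjusted p = 0.0409), whereas the block in the fit of all 3 groups did not (-0.42, adjusted p = 0.0512). The SLC16A3 locus overlaps CSNK1D on the opposite strand, a gene with 11715 to 15932 counts per library, and the sources used here do not give whether reads were counted by strand.

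SLC16A1, the carrier that also takes lactate up, had 11.4, 10.6 and 10.1 FPKM after overexpression and 4.60, 12.2 and 10.4 FPKM after knockdown, against 12.003, 13.2 and 13.1 FPKM in control cells. Knockdown 1, with 1624 counts, stood far below the other knockdown libraries, of which the higher one lay within the control range. The log2 fold change was -0.17 ± 0.29 after overexpression (95% interval -0.84 to 0.50, edgeR adjusted p = 0.658) and -0.51 ± 0.29 after knockdown (interval -1.17 to 0.16, edgeR adjusted p = 0.297). Without knockdown 1 the second of these was -0.19. The ratio of SLC16A3 to SLC16A1 was 2.28, 1.74 and 2.22 after overexpression and 7.79, 2.87 and 3.29 after knockdown, against 3.46, 3.49 and 3.92 in control cells. All overexpression ratios were below all others (log2 difference of -0.81 against control and -1.02 against knockdown, exact permutation p = 0.1 and adjusted p = 0.129 each). Knockdown ratios lay on both sides of the control ratios (log2 difference 0.21, exact permutation p = 1). Knockdown 1 set much of both differences from knockdown: without it that of overexpression against knockdown was -0.57 and that of knockdown against control turned to -0.24.

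The kinases were the least abundant of the 10 genes in FPKM, and they divided by perturbation. PDK1, the isoform known for its induction by hypoxia, had 1.07, 1.29 and 1.23 FPKM after overexpression and 0.766, 0.806 and 0.551 FPKM after knockdown, against 1.78, 2.05 and 1.73 FPKM in control cells. The groups did not overlap, and knockdown was lowest, with at least 684 counts in each of its libraries. PDK1 fell by 0.55 ± 0.14 on the log2 scale after overexpression (edgeR adjusted p = 0.0101) and by 1.40 ± 0.14 after knockdown (edgeR adjusted p = 0.000728), and overexpression was higher than knockdown by 0.86 ± 0.14 (edgeR adjusted p = 0.00110). Without the libraries with hepatocyte transcripts the edgeR changes against control were -0.44 (adjusted p = 0.347) and -1.40 (adjusted p = 0.130). On log2(TPM + 1) in limma the change after overexpression was -0.33 (adjusted p = 0.139).

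PDK2, the most widely expressed kinase isoform, showed the other order. It had 1.89, 1.54 and 1.59 FPKM after overexpression and 4.52, 4.20 and 4.37 FPKM after knockdown, against 5.96, 5.65 and 6.12 FPKM in control cells. The overexpression libraries were all far below the rest, and the knockdown libraries lay in between. The fall of 1.74 ± 0.11 on the log2 scale after overexpression (edgeR adjusted p = 5.3e-06) was 3.34-fold, the largest change of the 10 genes in either comparison against control. After knockdown PDK2 fell by 0.45 ± 0.10 (edgeR adjusted p = 0.0234), and overexpression differed from knockdown by -1.29 ± 0.11 (edgeR adjusted p = 2.75e-05).

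PDK3 followed PDK2. It had 0.532, 0.619 and 0.600 FPKM after overexpression and 1.27, 1.49 and 1.23 FPKM after knockdown, against 1.74, 2.04 and 1.62 FPKM in control cells. Again the groups did not overlap, with overexpression lowest and knockdown just under control. PDK3 fell by 1.54 ± 0.12 on the log2 scale after overexpression (edgeR adjusted p = 1.67e-05) and by 0.45 ± 0.12 after knockdown (edgeR adjusted p = 0.0363), and overexpression differed from knockdown by -1.09 ± 0.12 (edgeR adjusted p = 0.000121). The knockdown calls of PDK2 and PDK3 were the least stable of the set. Leaving out knockdown 1, for example, gave edgeR adjusted p = 0.0706 for PDK2 and 0.122 for PDK3, and leaving out the libraries with hepatocyte transcripts gave 0.229 and 0.311, with log2 fold changes of -0.52 and -0.46.

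The summed FPKM of PDK1 to PDK4 was 3.50 ± 0.0194 after overexpression and 6.41 ± 0.222 after knockdown, against 9.59 ± 0.155 in control cells (SD, n = 3 each), with PDK4 at no more than 0.0655 FPKM in any library. The make-up of this sum shifted in opposite directions. PDK1 made up 30.5%, 36.8% and 35.2% of it in overexpression libraries and 11.7%, 12.3% and 8.96% in knockdown libraries, against 18.7%, 21.0% and 18.1% in control libraries. None of the groups overlapped, with overexpression highest and knockdown lowest. The differences of the means were 14.9 percentage points for overexpression against control, -8.30 for knockdown against control and 23.2 for overexpression against knockdown (exact permutation p = 0.1 and adjusted p = 0.129 each). On the FPKM scale PDK2 remained the largest part. It made up 47.7% ± 5.32 after overexpression and 68.1% ± 3.39 after knockdown, against 61.7% ± 3.36 in control cells (SD, n = 3 each). By counts not divided by length, PDK1 was above PDK2 in each overexpression library (1195, 1457 and 1384 against 778, 641 and 662 counts). It was below PDK2 in each knockdown and control library. The FPKM shares and their order thus depend on the lengths. With library size taken as the summed counts, the length implied for PDK3 was 3.26 times its exon union in GENCODE 29. The other 9 genes were at 1.05 to 1.20 times theirs. Shares with other lengths were not computed.

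**Figure D2:**
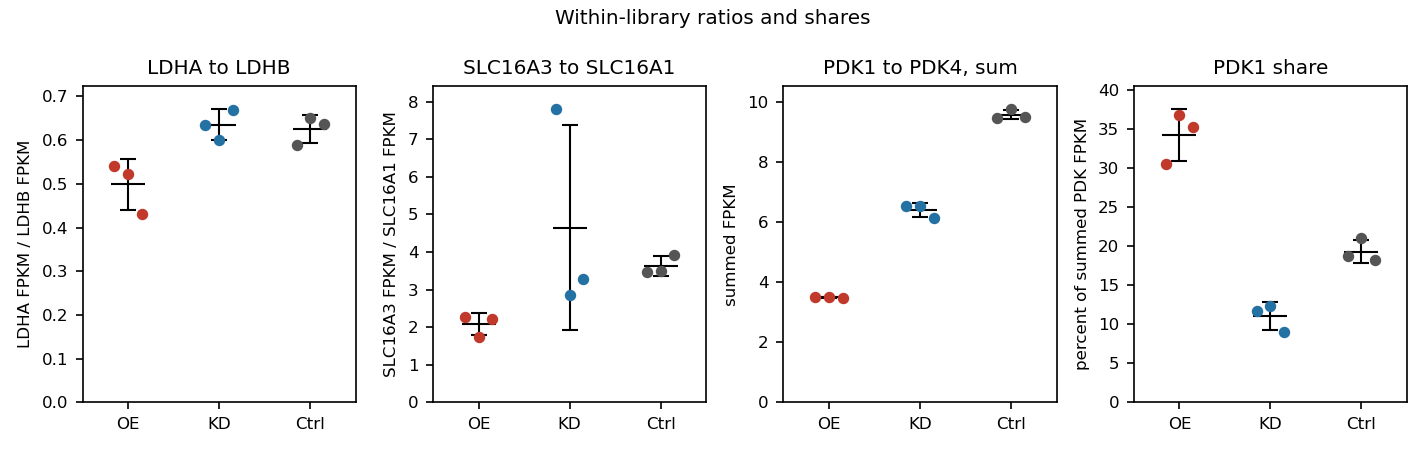
From left to right, the ratio of LDHA to LDHB FPKM, the ratio of SLC16A3 to SLC16A1 FPKM, the summed FPKM of PDK1 to PDK4 and the percentage of that sum from PDK1, in overexpression (OE), knockdown (KD) and control (Ctrl) libraries; points are libraries, long dashes means and bars 1 SD. The PDK1 share is 34.2% on average after overexpression and 10.99% after knockdown, against 19.3% in control cells.

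Of the subunits of the complex itself, PDHB fell after overexpression, DLAT fell after knockdown and PDHA1 passed in neither comparison against control. PDHA1, the subunit that the kinases phosphorylate, had 19.2, 17.0 and 18.8 FPKM after overexpression and 24.1, 23.8 and 25.8 FPKM after knockdown, against 21.0, 21.0 and 20.7 FPKM in control cells. The knockdown libraries were all above and the overexpression libraries all below the narrow control range in FPKM, a scale that the counts of NUSAP1 lower after overexpression. Neither change against control passed the test, with -0.11 ± 0.08 after overexpression (95% interval -0.29 to 0.07, edgeR adjusted p = 0.293) and 0.22 ± 0.08 after knockdown (interval 0.04 to 0.40, edgeR adjusted p = 0.104). On the log2(TPM + 1) scale in limma the first of these turned to 0.047 (adjusted p = 0.619) and the second was 0.35 (adjusted p = 0.0163). The direct comparison passed in edgeR, with overexpression differing from knockdown by -0.32 ± 0.08 on the log2 scale (edgeR adjusted p = 0.00896), or by -0.44 (adjusted p = 0.0692) without the libraries with hepatocyte transcripts.

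PDHB, the partner of PDHA1 in the E1 enzyme of the complex, had 10.04, 8.74 and 10.6 FPKM after overexpression and 15.1, 14.2 and 16.7 FPKM after knockdown, against 15.6, 15.3 and 18.6 FPKM in control cells. Overexpression libraries were apart from both other groups, which overlapped. PDHB fell by 0.67 ± 0.12 on the log2 scale after overexpression (edgeR adjusted p = 0.00151), and its change after knockdown was -0.12 ± 0.12 (interval -0.39 to 0.15, edgeR adjusted p = 0.564). Overexpression differed from knockdown by -0.56 ± 0.12 (edgeR adjusted p = 0.00458). Without the libraries with hepatocyte transcripts the change after overexpression was -0.82 (edgeR adjusted p = 0.0560). The ratio of PDHA1 to PDHB FPKM was 1.88 ± 0.0900 after overexpression and 1.60 ± 0.0672 after knockdown, against 1.28 ± 0.145 in control cells (SD, n = 3 each).

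DLAT, the E2 acetyltransferase core of the complex, had 22.4, 24.3 and 23.7 FPKM after overexpression and 21.7, 22.1 and 22.8 FPKM after knockdown, against 27.4, 28.4 and 28.3 FPKM in control cells. Both perturbed groups lay below control and overlapped each other. DLAT fell by 0.35 ± 0.07 on the log2 scale after knockdown (edgeR adjusted p = 0.0126), a call lost without knockdown 1 (adjusted p = 0.0551) and without the libraries with hepatocyte transcripts (-0.37, adjusted p = 0.249). After overexpression its change was -0.18 ± 0.07 (edgeR adjusted p = 0.0563), and overexpression differed from knockdown by 0.17 ± 0.07 (edgeR adjusted p = 0.0639).

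The summed kinase FPKM over that of PDHA1, the subunit they phosphorylate, was 0.183, 0.206 and 0.185 after overexpression and 0.272, 0.275 and 0.239 after knockdown, against 0.451, 0.465 and 0.461 in control cells. Each perturbed library had less kinase RNA per PDHA1 RNA than each control library, and the overexpression libraries had the least. This ratio was computed for description and was not tested.

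Between overexpression and knockdown, 8 of the 10 genes differed. LDHA, LDHB and PDK1 were higher after overexpression, and SLC16A3, PDK2, PDK3, PDHA1 and PDHB were lower. In this comparison 50.0% of all tested genes were called, 25.5% higher and 24.5% lower. The FPKM of these 8 genes did not overlap between overexpression and knockdown, and 60.1% of tested genes did not, 35.0% with overexpression lower. The median over the 10 genes was -0.08, but their median absolute log2 difference was 0.55, where that of all tested genes was 0.44.

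**Figure D3:**
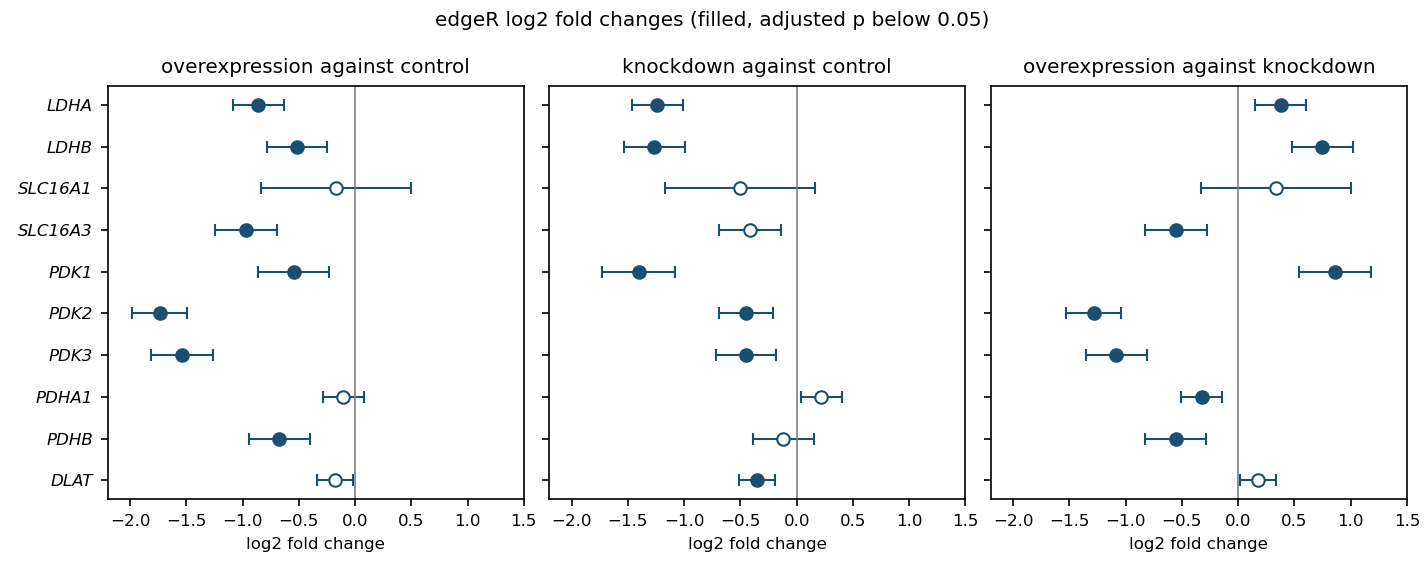
Log2 fold changes of the 10 genes from edgeR (horizontal axes) for overexpression against control, knockdown against control and overexpression against knockdown; bars are approximate 95% intervals and filled points passed an adjusted p of 0.05. LDHA, LDHB and PDK1 lie right of 0 in the third panel, and SLC16A3, PDK2, PDK3, PDHA1 and PDHB lie left of it.

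In control cells the order by mean FPKM was LDHB, LDHA, SLC16A3, DLAT, PDHA1, PDHB, SLC16A1, PDK2, PDK1 and PDK3, and PDK1 and PDK3 were the only neighbours whose libraries overlapped. After overexpression DLAT, SLC16A3 and PDHA1 overlapped in turn, and so did SLC16A1 and PDHB. After knockdown SLC16A3 and PDHA1 stood above DLAT, PDK3 stood above PDK1, and no neighbours overlapped. This order compares levels per length of the authors' gene models.

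Further genes around pyruvate were set beside these. Of 33 further genes in 4 lists (other lactate dehydrogenases, other lactate and pyruvate carriers, other genes of the pyruvate dehydrogenase complex, and other enzymes that use or make pyruvate or acetyl-CoA), 22 were tested. After overexpression 14 of the 22 fell (63.6%, where 26.0% of all tested genes were called lower) and none rose. After knockdown 2 of the 22 fell (9.09%, near the 7.43% of all tested genes) and none rose, with 4 lower and 1 higher at an unadjusted p below 0.05, while DESeq2 called 4 lower and 0 higher. Without the libraries with hepatocyte transcripts edgeR called 6 lower after overexpression and 0 after knockdown, where 3 were lower at an unadjusted p below 0.05. Their median log2 fold changes were -0.57 and -0.05. Between overexpression and knockdown 1 was higher and 13 were lower after overexpression.

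Among the lactate dehydrogenases LDHD, which oxidises D-lactate in mitochondria, was the only one of 4 tested. It had a mean of 0.265 FPKM after overexpression and 1.44 FPKM after knockdown, against 2.31 FPKM in control cells, and it fell after overexpression by 3.03 ± 0.26 on the log2 scale (edgeR adjusted p = 2.89e-05). After knockdown its change was -0.70 ± 0.24 (edgeR adjusted p = 0.0885), which DESeq2 called (-0.71, adjusted p = 0.0129). With the 4 libraries with hepatocyte transcripts left out, the edgeR changes of LDHD were -2.87 (adjusted p = 0.0203) after overexpression and -0.78 (adjusted p = 0.265) after knockdown. Of the carriers, 4 of 8 were tested, and 3 fell after overexpression. BSG (basigin), the chaperone that takes SLC16A1 and SLC16A3 to the membrane, fell by 0.52 ± 0.09, and MPC1, a subunit of the mitochondrial pyruvate carrier, fell by 0.67 ± 0.14 (edgeR adjusted p = 0.00138 and 0.00340). In the 5 libraries without hepatocyte transcripts 1 of the 4 was called lower, BSG at -0.76 (edgeR adjusted p = 0.0328), and MPC1 was at -0.94 (edgeR adjusted p = 0.0703). After knockdown 0 of the 4 passed in edgeR or DESeq2, and 1 had an unadjusted p below 0.05, with the smallest adjusted p for MPC2 (0.34 ± 0.13, edgeR adjusted p = 0.129) and EMB (0.16 ± 0.17, edgeR adjusted p = 0.596). Set against knockdown, all 4 were lower after overexpression.

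Of the other genes of the complex, 7 of 9 were tested. After overexpression LIPT2, which takes part in making its lipoyl groups, fell by 1.32 ± 0.17 on the log2 scale (edgeR adjusted p = 0.000282), and DLD, the E3 subunit, fell by 0.36 ± 0.12 (edgeR adjusted p = 0.0343). In those 5 libraries LIPT2 was at -1.45 (edgeR adjusted p = 0.0461) and DLD at -0.16 (edgeR adjusted p = 0.640). After knockdown 0 of the 7 passed in edgeR or DESeq2, and 0 had an unadjusted p below 0.05. Of the other enzymes 10 of 12 were tested, and 8 fell after overexpression. The smallest adjusted p were those of ACSS1, a mitochondrial acetyl-CoA synthetase (-1.20 ± 0.11, edgeR adjusted p = 4.7e-05), and ACLY, which makes cytosolic acetyl-CoA from citrate (-0.70 ± 0.07, edgeR adjusted p = 5.82e-05). Without the libraries with hepatocyte transcripts edgeR called 3 after overexpression and 0 after knockdown, where 2 were lower at an unadjusted p below 0.05. The 2 that fell after knockdown were ME2, mitochondrial malic enzyme (-0.92 ± 0.07, edgeR adjusted p = 0.000212), and PCK2, mitochondrial phosphoenolpyruvate carboxykinase (-0.74 ± 0.21, edgeR adjusted p = 0.0475). DESeq2 called 3, the further one being ME3, another malic enzyme (-0.38, adjusted p = 0.00949), which was named after its value was seen. ME2 was also the gene that was higher after overexpression than after knockdown, by 0.54 ± 0.07 (edgeR adjusted p = 0.000295), or 0.52 (edgeR adjusted p = 0.0526) without the libraries with hepatocyte transcripts.

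The earlier steps of glycolysis were set beside these as a further list of 14 genes, all tested. After overexpression 10 fell and 1 rose, and after knockdown 4 fell and none rose, and DESeq2 gave the same counts. Over all tested genes 26.0% were called lower and 27.4% higher after overexpression, and 7.43% lower and 7.02% higher after knockdown. Without the libraries with hepatocyte transcripts edgeR called 6 lower and 0 higher after overexpression and 0 after knockdown, where 4 were lower at an unadjusted p below 0.05. HK2, an inducible hexokinase, rose by 0.48 ± 0.13 on the log2 scale after overexpression (edgeR adjusted p = 0.0112) and fell by 0.77 ± 0.13 after knockdown (edgeR adjusted p = 0.00610). ALDOC, an aldolase, fell by 2.77 ± 0.12 after overexpression (edgeR adjusted p = 1.29e-06) and by 0.64 ± 0.12 after knockdown (edgeR adjusted p = 0.00897). With the libraries with hepatocyte transcripts left out, the edgeR changes after overexpression were 0.73 (adjusted p = 0.0548) for HK2 and -2.66 (adjusted p = 0.0166) for ALDOC, and those after knockdown were -0.69 (adjusted p = 0.158) and -0.61 (adjusted p = 0.240). The list's median was -0.56 after overexpression, close to the -0.61 of the 10 lactate and pyruvate genes, and -0.10 after knockdown, against -0.45 for the 10. The difference between the lists was not tested.

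**Figure D4:**
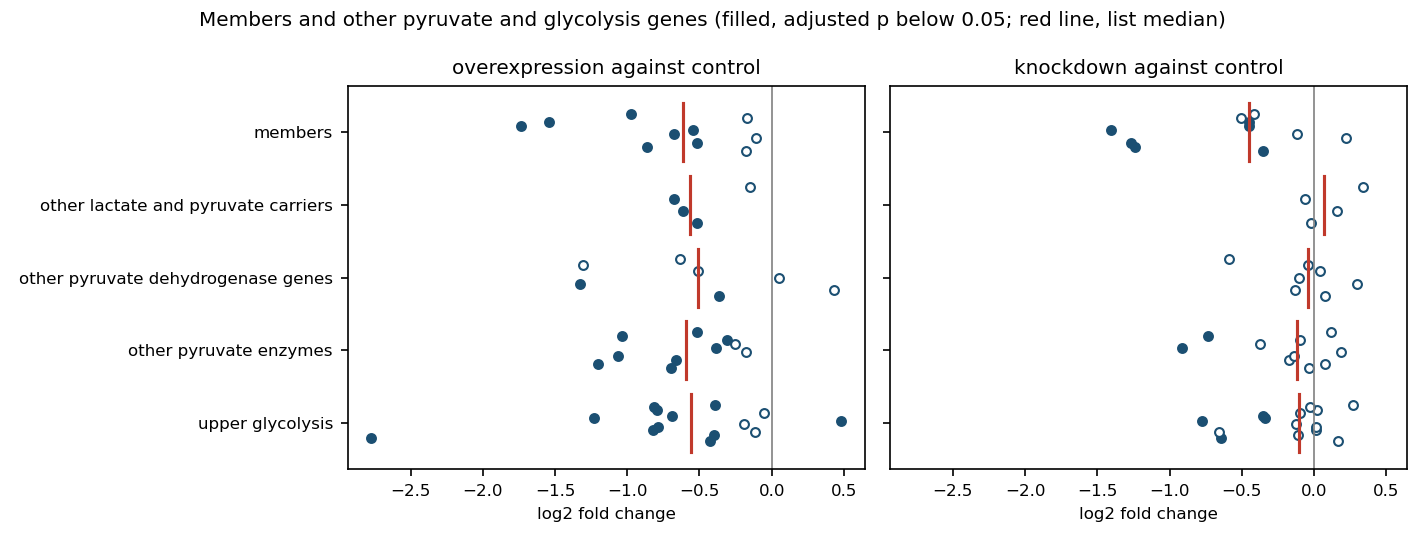
Log2 fold changes of single genes (points) in the 10 lactate and pyruvate genes and 4 further lists, for overexpression against control (left) and knockdown against control (right); filled points passed an adjusted p of 0.05 and red lines are list medians. After overexpression all 5 medians lie between -0.61 and -0.51, whereas after knockdown, of the 5 lists shown, only that of the 10 genes, at -0.45, lies beyond -0.12. The list of other lactate dehydrogenases, of which LDHD alone was tested, is not shown. LDHD was at -3.03 after overexpression and -0.70 after knockdown.

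HIF1A, the regulated subunit of hypoxia-inducible factor, had a mean of 21.9 FPKM after overexpression and 13.7 FPKM after knockdown, against 19.9 FPKM in control cells. It fell by 0.56 ± 0.15 on the log2 scale after knockdown (edgeR adjusted p = 0.0399), its change after overexpression was 0.22 ± 0.15 (edgeR adjusted p = 0.246), and it was higher after overexpression than after knockdown by 0.78 ± 0.15 (edgeR adjusted p = 0.00257). In the 5 libraries without hepatocyte transcripts the knockdown change of HIF1A was -0.59 (edgeR adjusted p = 0.321) and the difference from knockdown was 0.97 (edgeR adjusted p = 0.0400). MYC did not pass in either comparison against control (0.98 ± 0.87, edgeR adjusted p = 0.375, after overexpression and -0.71 ± 0.86, edgeR adjusted p = 0.648, after knockdown). MYC had 36.0, 30.3 and 4.41 FPKM after overexpression and 12.5, 10.4 and 1.06 FPKM after knockdown, against 13.1, 12.3 and 12.7 FPKM in control cells, so that library 3 stood far below the other libraries in both perturbed groups. Hypoxia-inducible factor is controlled largely through protein stability, which RNA does not show.

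Across the 9 libraries, LDHA correlated with LDHB at Pearson r = 0.936, with DLAT at 0.971 and with PDK1 at 0.891 on log2(FPKM + 1), and with PDK2 at 0.522 and PDHA1 at -0.233. These values describe libraries that share groups, since the 3 group means set most of the spread. Among 3571 tested genes with a mean of at least 10 FPKM, the 5 most like LDHA were WBP1L (0.992), NGEF (0.982), UBQLN4 (0.982), VAMP3 (0.981) and PRPF31 (0.9805). Among those most like LDHB were GLUD1 (0.987), LOXL2 (0.979), STX2 (0.972) and PSMD10 (0.972). Among those most like PDK1 were NDC1 (0.988), IARS2 (0.9815), STX2 (0.9798) and WWTR1 (0.976), so STX2 was near both LDHB and PDK1. Like LDHA, WBP1L was lowest after knockdown, with means of 12.1 FPKM after overexpression and 8.63 FPKM after knockdown, against 23.8 FPKM in control cells.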

How the data were processed

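Libraries came from oligo(dT)-purified RNA with dUTP in the second strand, per the labels' protocols. The authors deposited counts and FPKM per gene and library in 1 table. StringTie 1.3.4d, HISAT2 2.0.4 and cutadapt 1.9 are listed in the submitters' processing notes, and settings, genome build and use of strand were not given in the sources used here. From the values, FPKM used 1 fixed length per gene.

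Counts were fitted with edgeR 4.0.16 under R 4.3.3, using TMM factors and 1 model of 3 groups; the common biological coefficient of variation was 0.226. Totals were 57115172 to 73386227 per library, and libraries of a group differed by 75.4 to 163 times sampling noise (chi-square per degree of freedom), so the spread between libraries, not depth, limits the precision. Each SE is the absolute log2 fold change divided by the root of F, an approximation. Ratios and shares used FPKM within a library and exact two-sided permutation tests. Alternatives used DESeq2 1.42.0, limma 3.58.1 on log2(FPKM + 1), other filters and scalings, left-out libraries and a replicate block. The edgeR script was tested on simulated data.

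The 10 genes, the lists and the tests were chosen with earlier results of these data known. Named genes are all 10, the 2 of each pyruvate list with the smallest adjusted p, NUSAP1, HIF1A, MYC and the 5 genes most like LDHA, LDHB and PDK1; HK2 and ALDOC were named after their values were seen, and some genes of this rule are not reported here. The main tests did not use replicate numbers as pairs, and a block on them was fitted as an alternative. Deviations from the group means correlated at 0.107 to 0.147 between knockdown and control libraries of equal number. These values were -0.093 to -0.0123 for overexpression with control and -0.0566 to 0.236 for overexpression with knockdown. Overexpression 1 and knockdown 3, of unlike number, reached 0.211. Promoter sequences are from RefSeq.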

Additional observations from a re-analysis of the deposited data

How the results depend on the processing

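Of 604 refits of single genes, over 30 gene and comparison pairs, 548 kept direction and side of the threshold, 31 lost and 23 gained the call, and 2 changed sign, both uncalled: on log2(TPM + 1) in limma, PDHA1 after overexpression was 0.047 and PDHB after knockdown 0.018, where the median of all genes shifted by 0.14. PDK1 and PDK3 have no value with the filter at 5 FPKM.

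Without the 4 libraries with hepatocyte transcripts, edgeR called 2419 genes after overexpression, 6 after knockdown and 3539 between overexpression and knockdown (6702, 1813 and 6270 with all libraries), with 0 of the 10 genes after knockdown (7 at an unadjusted p below 0.05); the log2 LDHA to LDHB differences against control were -0.17 and 0.11, that of SLC16A3 to SLC16A1 after overexpression was -0.99, and the PDK1 share after overexpression differed by 18.1 points. The filter at 5 FPKM gave 4229 calls after overexpression and 4069 between overexpression and knockdown. After knockdown DESeq2 called 2767 genes and edgeR without a filter 1058. Leaving out 1 library gave 962 to 1702 calls and 3 to 7 of the 10 genes after knockdown, with both lowest values without knockdown 1. By counts, the PDK1 share differed by 18.01, -12.6 and 30.6 points (overexpression against control, knockdown against control, overexpression against knockdown), and by 8.30, -4.59 and 12.9 on FPKM + 1. The replicate block in the fit of all 3 groups changed no call of the 10 genes in the 3 comparisons and gave 7068, 2132 and 6643 calls over all genes; with knockdown and control alone it gave 1392.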
